A study of Felis catus with 2 samples.

Results

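The rod photoreceptor genes described here are SAG, PRPH2, RCVRN, GUCA1B, PDE6A, PDE6B and ROM1. They were chosen by name, from a set of 9 names that also held GNAT1 and NRL, and a locus was used when its listed gene name equalled the symbol exactly. This gave 7 of the 32065 loci in the table, with 1 row for each name. No row carried exactly the name GNAT1 or NRL, so these genes were not analysed here. Polyadenylated RNA was sequenced from 2 libraries, 1 from a cat with primary congenital glaucoma (PCG), the affected cat, and 1 from an unrelated healthy cat of the same age, the normal cat. Both cats were 2 months old, and the PCG of the colony from which the affected cat came segregates with a frameshift insertion in LTBP2. Each sample was a piece of the anterior eye wall around the drainage angle, with meshwork, sclera and ciliary body in it, and the retina is not named among its parts. Since each condition has a single library, the values carry no replicate error and no test was possible, so they describe these 2 libraries only, and disease, the individual cat and the dissection cannot be told apart.

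Rods are the photoreceptors of dim light. Light activates the visual pigment in the stacked discs of the outer segment, the pigment activates transducin (GNAT1 encodes its alpha subunit), and transducin switches on the phosphodiesterase whose catalytic subunits are PDE6A and PDE6B. The fall in cyclic GMP then closes cation channels. Arrestin, encoded by SAG, quenches the activated pigment, recoverin (RCVRN) inhibits the photoreceptor kinase GRK1 when calcium is high, and the guanylate cyclase activator GUCA1B restores cyclic GMP when calcium falls. PRPH2 and ROM1 are tetraspanins that shape the rims of the discs, and NRL is a transcription factor of rod fate. SAG, PDE6A and PDE6B are used mainly by rods, whereas PRPH2, ROM1, RCVRN and GUCA1B also work in cones, so the set marks photoreceptors in general as well as rods.

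All 7 genes had higher values in the affected cat, but by very different amounts. RCVRN, PDE6B and ROM1 were higher by a factor of 2.89 to 3.44, PRPH2 and SAG by 5.67 and 8.85, PDE6A by 25.8, and GUCA1B was barely detected in the normal library. Values are FPKM, numbers of sequenced fragments scaled by exon length and library size, so levels can be compared between genes. Each log2 ratio sets (affected FPKM + 1) over (normal FPKM + 1), which understates the difference of low genes. The comparison covers the 16676 loci that reached 1 FPKM in either library. All 7 genes passed that minimum, GUCA1B through the affected library alone. All 7 were at least 2-fold higher on this scale, against 8.14% of all loci, and 4 of 7 were at least 4-fold higher, against 1.68% of all loci. Of all loci, 8.75% were at least 2-fold lower, and 0 of the 7 genes were. Their median log2 ratio was 2.48, and that of all loci was −0.0047. A gene that passes the minimum through a single library has its direction fixed by the minimum, so medians are also given over the genes that reached 1 FPKM in both libraries, a setting added after the data were seen. That median was 2.13 over 6 rod genes and 0.0026 over all 14184 such loci, of which 6.42% were at least 2-fold higher. In bulk tissue, more rods in the affected sample and more RNA of these genes per rod cannot be told apart.

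**Figure D1:**
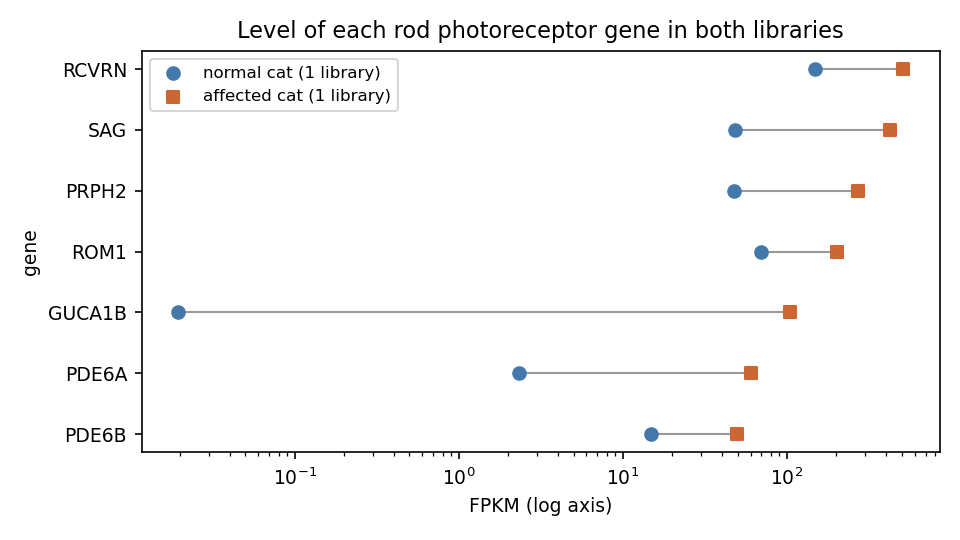
FPKM of each rod gene (log axis) in the normal library (blue circles) and the affected library (orange squares), 1 library each, with a grey line joining the pair of values of a gene. All squares lie to the right of their circles, and the gap runs from a factor of 2.89 for ROM1 to the gap of GUCA1B, whose normal value was 0.0194 FPKM.

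Among the cascade enzymes, PDE6A (Cufflinks locus XLOC_000670, chromosome A1 of felCat5 from 196809179 to 196873319) had a normal value of 2.34 FPKM and an affected value of 60.3 FPKM. Its log2 ratio of 4.20 exceeded that of 99.8% of the loci, and 33 loci had a higher one. PDE6B (XLOC_007919, chromosome B1 from 205100952 to 205136852) had a normal value of 14.8 FPKM and an affected value of 49.9 FPKM, a log2 ratio of 1.69. The protein products of these genes pair up in the rod enzyme. Within the normal library the PDE6A level was 0.158 times the PDE6B level, and within the affected library it was 1.21 times, so the order of the subunits turned over between the libraries. A ratio within a library does not depend on the scaling between libraries.

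Of the genes that end the light response and return the cell to darkness, SAG (XLOC_015226, chromosome C1 from 214734559 to 214772075) had a normal value of 48.2 FPKM and an affected value of 426.8 FPKM, a log2 ratio of 3.12. This placed it 1779th (normal) and 205th (affected) among all loci. RCVRN (XLOC_024873, chromosome E1 from 4211959 to 4219214) was the highest of the 7 genes in both libraries, with 149.3 and 513.8 FPKM and a log2 ratio of 1.78. The arrestin level was 0.323 times the recoverin level in the normal library and 0.831 times in the affected library. The gap between the libraries was thus larger for arrestin than for recoverin.

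GUCA1B (XLOC_009359, chromosome B2 from 43016918 to 43036493) had the largest ratio of the set, though not the largest difference in FPKM. It had a normal value of 0.0194 FPKM and an affected value of 104.6 FPKM, a log2 ratio of 6.69, and 9 loci had a higher one. Low values of unnamed loci lay close to whole multiples of what 1 fragment is worth (97.5% and 97.2% of them within 0.03 of a whole fragment in the normal and affected libraries), which gives the depth. At 1 kilobase of effective length a single fragment was worth 0.0140 FPKM (normal) and 0.0148 FPKM (affected). The GUCA1B value in the normal library therefore amounts to 1.38 fragments per kilobase, a level at the limit of detection, against 7072 fragments per kilobase in the affected library. If the normal value was a single fragment, the effective length was 724 bases and the affected value was 5117 fragments. The ratio would then be 5390, with an exact 95% interval from 967 to 212915 that covers counting error only. If it was 2 fragments, that interval runs from 1492 to 44509.

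GUCA1A, which encodes the related activator GCAP1, is listed with exactly the same span as GUCA1B. GUCA1A was at 1.28 FPKM (normal) and 41.9 FPKM (affected), a log2 ratio of 4.23. Both genes were thus low in the normal library, and GUCA1B was 0.0152 times GUCA1A there but 2.5 times GUCA1A in the affected library. Whether the counting used strand is not given in the sources used here, so reads from overlapping parts of these genes may be split between them.

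The tetraspanin PRPH2 (XLOC_009362, chromosome B2 from 43389474 to 43532810) had a normal value of 47.8 FPKM and an affected value of 270.9 FPKM, a log2 ratio of 2.48. Its partner ROM1 (XLOC_019281, chromosome D1 from 107784080 to 107915426) was listed at 69.8 and 201.9 FPKM, a log2 ratio of 1.52, the smallest of the set. PRPH2 was 0.685 times ROM1 in the normal library and 1.34 times in the affected library, so this pair turned over as well. The listed spans of both are wider than the genes themselves. PRPH2 shares its span with UBR2, a ubiquitin ligase (5.96 and 14.5 FPKM in the normal and affected libraries), and ROM1 shares its span with 13 other loci. Of the 12 of those that reached 1 FPKM, 2 were at least 2-fold higher in the affected cat, UBXN1 and an Ensembl gene without a symbol, and the lowest log2 ratio was −0.43. The translation factor gene EEF1G, the most abundant locus in that span, was listed at 1179 and 874.4 FPKM.

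The summed level of the 7 genes was 332.3 FPKM (normal) and 1628 FPKM (affected), or 0.0512% and 0.242% of all FPKM, a share 4.73 times as high. The make-up of that sum also differed. RCVRN held 44.9% of it (normal) and 31.6% (affected), and ROM1 held 21.0% and 12.4%. SAG went the other way, from 14.5% to 26.2%, and GUCA1B from 0.0058% to 6.42%. PDE6A held 0.704% and 3.70%, PDE6B 4.45% and 3.06%, and PRPH2 14.4% and 16.6%. In the normal library the order from high to low was RCVRN, ROM1, SAG, PRPH2, PDE6B, PDE6A, GUCA1B, and in the affected library RCVRN, SAG, PRPH2, ROM1, GUCA1B, PDE6A, PDE6B. The normal values of SAG and PRPH2 differed by only 1.01-fold, and with 1 library each no spread is known against which neighbours in either order could be set.

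**Figure D2:**
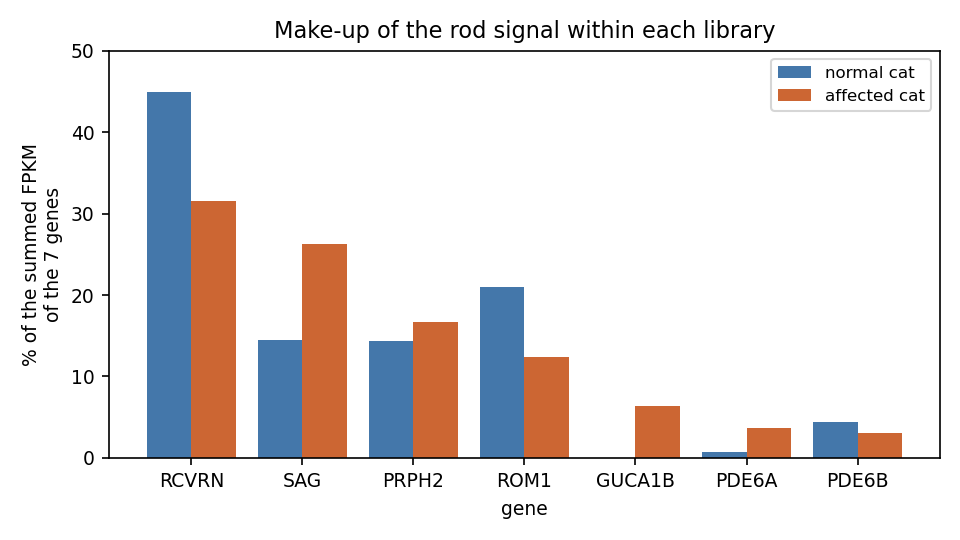
Share (%) of the summed FPKM of the 7 rod genes held by each gene, in the normal library (blue bars) and the affected library (orange bars), 1 library each. RCVRN and ROM1 hold larger shares in the normal library (44.9% and 21.0%), and SAG and GUCA1B larger shares in the affected library (26.2% and 6.42%).

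Other genes of rod phototransduction also had higher values in the affected cat. Of 16 further names, 12 were listed, 11 reached 1 FPKM in a library, and all 11 were at least 2-fold higher in the affected cat, with log2 ratios from 1.41 to 4.23 and a median of 1.88. The cyclic GMP-gated channel subunits CNGA1 and CNGB1 were listed at 0.314 and 3.27 FPKM in the normal library. Their affected values were 17.7 and 22.0 FPKM, log2 ratios of 3.83 and 2.43. GRK1, the kinase that recoverin inhibits, was listed at 1.08 and 19.9 FPKM (log2 ratio 3.33), and RGS9, which speeds the shut-off of transducin, at 6.08 and 48.6 FPKM (log2 ratio 2.81). At the other end were GNGT1, the gamma subunit of rod transducin, with 55.2 and 159.1 FPKM (log2 ratio 1.51), and UNC119, a carrier of lipid-modified transducin, with 99.1 and 265.5 FPKM (log2 ratio 1.41). The photoreceptor guanylate cyclase GUCY2F was listed at 0.0571 and 1.83 FPKM (log2 ratio 1.42), a value that the added 1 FPKM shrinks strongly. CNGA1 and GUCY2F passed the minimum through the affected library alone, so they had to differ and their place in the count says little. GNB1, a G protein subunit gene used by most cells, was listed at 0 in both libraries, and such a 0 is not read as absence.

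Some genes of the cascade were listed only in loci that join several names, and how much of such a locus belongs to each gene was not analysed here. The inhibitory phosphodiesterase subunit PDE6G was joined with OXLD1, at 36.3 and 398.4 FPKM (log2 ratio 3.42). The exchanger gene SLC24A1 was joined with an Ensembl gene, at 0.328 and 29.4 FPKM (log2 ratio 4.52). The log2 ratio of both loci lay above the median of the 7 genes.

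Genes of photoreceptor structure, the visual cycle and the synapse were mostly higher too, by smaller amounts. Of 21 names, 18 were listed and 17 passed the minimum, of which 12 were at least 2-fold higher and 0 at least 2-fold lower, with a median log2 ratio of 1.42. Among the highest were RDH8, a retinol dehydrogenase of outer segments (0.330 and 10.8 FPKM), and TULP1, a transport protein of photoreceptors (5.79 and 36.7 FPKM). RDH8 passed the minimum through the affected library alone, so it had to differ. The lowest were PROM1, a protein of nascent discs (28.6 and 31.2 FPKM), IMPG2, a matrix proteoglycan around photoreceptors (11.6 and 15.5 FPKM), and RDH12, another retinol dehydrogenase (5.54 and 8.27 FPKM). AIPL1, a chaperone for the rod phosphodiesterase, was listed at 34.8 and 54.9 FPKM, a log2 ratio of 0.64, below that of both enzyme subunits.

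Transcription factors of photoreceptors had values on both sides. Of 8 names, 6 were listed and all 6 passed the minimum, with a median log2 ratio of 0.084, 1 at least 2-fold higher and 2 at least 2-fold lower. The median was 0.57 over the 5 genes that reached 1 FPKM in both libraries, and also over genes averaging at least 5 FPKM, and the mean of the list was −0.080. CRX, a regulator of rod and cone genes, was listed at 76.5 and 120.1 FPKM (log2 ratio 0.64), and OTX2, which acts upstream of it and also serves the pigment epithelium, at 84.2 and 63.4 FPKM (log2 ratio −0.40). NEUROD1 was listed at 32.6 and 10.9 FPKM (log2 ratio −1.49) and PRDM1, a gene of early photoreceptor fate, at 4.13 and 0.414 FPKM (log2 ratio −1.86). PRDM1 passed the minimum through the normal library alone, so it had to differ. SAMD7, a repressor in photoreceptor nuclei, was listed at 5.49 and 26.0 FPKM (log2 ratio 2.06). The locus that joins the regulator RAX2 with APBA3 was listed at 26.2 and 28.4 FPKM (log2 ratio 0.11). CRX was higher than SAG in the normal library and lower than SAG in the affected library.

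Cone genes were divided. Of 15 names, 13 were listed and 12 passed the minimum, 9 of them higher and 3 lower in the affected library, with a median log2 ratio of 0.62. Of these 12, 5 were at least 2-fold higher and 1 at least 2-fold lower. The cyclase activator GUCA1C and the exchanger SLC24A2 passed through the affected library alone and the cone channel subunit CNGA3 through the normal library alone, so their directions were fixed by the minimum, and GUCA1C and SLC24A2 set this median. Over the 9 genes that reached 1 FPKM in both libraries, 7 were higher and 2 lower, with a median of 1.72. The median over all 12 was 1.25 with a pseudocount of 0.1, and it was 2.49 over genes averaging at least 5 FPKM. Cone arrestin, ARR3, was listed at 2.58 and 30.2 FPKM (log2 ratio 3.12), the inhibitory cone phosphodiesterase subunit PDE6H at 13.5 and 99.5 FPKM (2.79), and the potassium channel subunit KCNV2, used by rods and cones, at 7.26 and 57.0 FPKM (2.81). The opsins went apart: the long-wave opsin OPN1LW was listed at 2.15 and 16.7 FPKM, and the short-wave opsin OPN1SW at 11.7 and 1.67 FPKM. Cone transducin, GNAT2, was nearly level at 1.25 and 1.36 FPKM. Summed over the 13 genes, the cone level was 74.8 FPKM (normal) and 238.5 FPKM (affected), against 332.3 and 1628 FPKM for the 7 rod genes. The cone sum leaves out the transducin subunit GNB3, whose locus, joined with LEPREL2, was listed at 61.6 and 56.9 FPKM (log2 ratio −0.11).

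**Figure D3:**
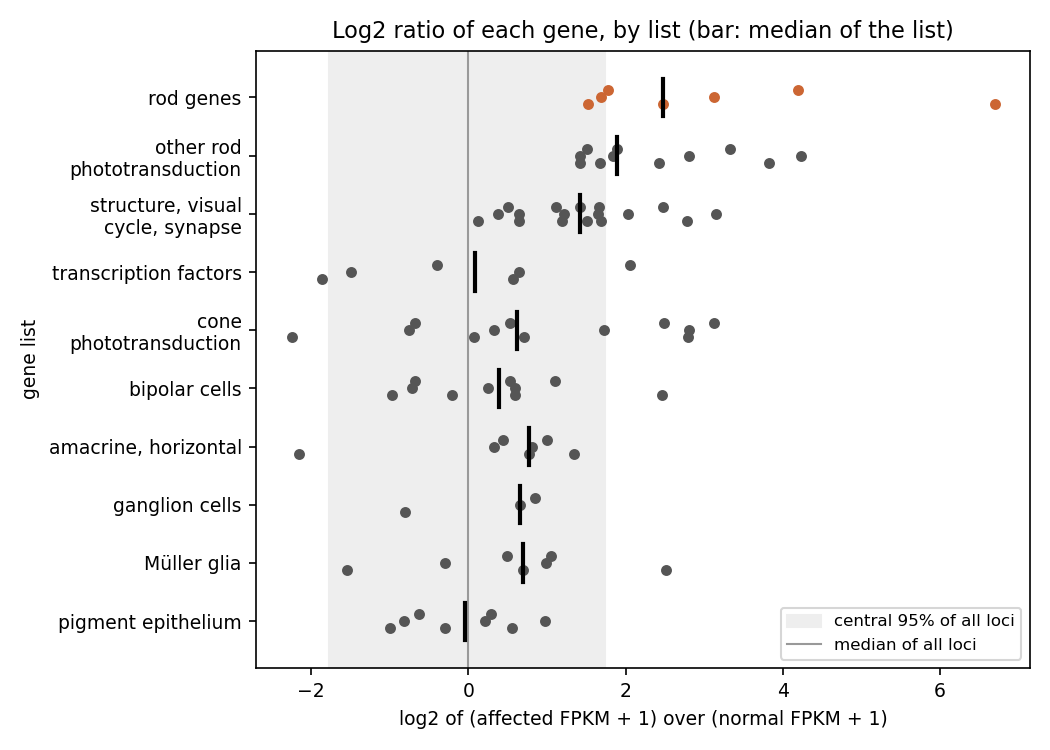
Log2 of (affected FPKM + 1) over (normal FPKM + 1) for each gene past the minimum, by list, with a black bar at the median of the list, the grey band holding the central 95% of all loci (−1.77 to 1.73) and a line at their median. The 7 rod genes (orange) lie between 1.52 and 6.69, and the transcription factors lie on both sides of 0. Of the rod genes, ROM1 (1.52) and PDE6B (1.69) lie inside the grey band.

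Lists of markers of other retinal cells had lower medians than the rod genes, and their part in the rod values was not tested. The median log2 ratio was 0.38 over 10 bipolar cell genes, 0.78 over 7 amacrine and horizontal cell genes, 0.65 over 3 ganglion cell genes, 0.70 over 7 Müller glia genes and −0.044 over 8 genes of the retinal pigment epithelium. The amacrine and horizontal median is the value of GAD2 and the Müller median that of KCNJ10, and both genes passed the minimum through the affected library alone, so they had to be higher. Over genes that reached 1 FPKM in both libraries the medians were 0.59 (7 bipolar genes), 0.62 (6 amacrine and horizontal genes) and 0.50 (5 Müller genes), while the ganglion cell and pigment epithelium lists did not change. The ganglion cell regulators POU4F1, POU4F2 and POU4F3 were under 0.2 FPKM in both libraries, and no gene of these 5 lists was listed at 0 in either library. Summed levels were 82.5 and 148.4 FPKM for the bipolar list, 96.3 and 116.0 FPKM for the amacrine and horizontal list, 101.6 and 147.8 FPKM for the ganglion cell list, 825.0 and 2499 FPKM for the Müller list and 633.8 and 1087 FPKM for the pigment epithelium list. RBPMS alone held 86.2 and 135.9 FPKM of the ganglion cell sum. In the amacrine and horizontal sum, TFAP2B held 40.8 and 8.38 FPKM and SLC6A9 34.5 and 70.0 FPKM. These sums thus rest largely on a few genes. Among the genes that reached 1 FPKM in both libraries, 2 of 7 bipolar, 2 of 5 Müller and 1 of 6 amacrine and horizontal cell genes were lower in the affected cat. The lowest were the bipolar regulator VSX1 (log2 ratio −0.97), CRYM of the Müller list (−1.55) and the amacrine cell regulator TFAP2B (−2.16). Some genes lay within the rod range. The bipolar cell gene PCP2 had 7.38 and 45.3 FPKM, a log2 ratio of 2.46. The highest gene of the Müller list in both libraries was GLUL, which encodes the glutamine synthetase of Müller glia and of many other cells, with 346.6 and 1981 FPKM (log2 ratio 2.51). Without GLUL the Müller sum was 478.4 and 517.7 FPKM, and without the transthyretin gene TTR the pigment epithelium sum was 129.2 and 96.5 FPKM, lower in the affected cat (both sums added after the data were seen). Over genes averaging at least 5 FPKM, the ganglion cell median (−0.079) and the pigment epithelium median (0.25) changed sign. Among the pigment epithelium genes, the visual cycle isomerase RPE65 was listed at 53.2 and 26.1 FPKM, a log2 ratio of −1.0, the lowest of its list. Of the 8 pigment epithelium genes 4 were higher and 4 lower, and the highest log2 ratio was that of TTR, 0.97, with 504.6 and 990.6 FPKM. The joined locus that holds the bipolar channel gene TRPM1, which pigment cells also use, was listed at 61.5 and 212.1 FPKM (log2 ratio 1.77). The joined locus that holds the ganglion cell gene SNCG was listed at 244.7 and 125.5 FPKM (log2 ratio −0.96).

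Genes of the labelled tissue were present in both libraries. All 12 iridocorneal angle and trabecular meshwork genes were listed and passed the minimum, with summed levels of 1602 and 1499 FPKM and a median log2 ratio of 0.18. The myocilin gene MYOC was listed at 149.7 and 301.5 FPKM, and the matrix protein gene MGP at 454.9 and 52.9 FPKM. The ciliary epithelium list, of which 11 of 12 genes were listed, had summed levels of 2362 and 6571 FPKM and a median log2 ratio of 0.99. This median is the value of the water channel gene AQP4, which passed the minimum through the affected library alone and so had to be higher, and which also stands in the Müller list. Over the 9 ciliary genes that reached 1 FPKM in both libraries the median was 1.42. Of the 11 ciliary genes past the minimum, 8 were higher and 3 lower in the affected cat. The highest log2 ratios of the ciliary list were those of the type IX collagen genes COL9A1, with 403.5 and 1718 FPKM, and COL9A2, with 355.6 and 1391 FPKM. These, COL9A3 and OPTC carried most of the rise in the summed level. Lower in the affected cat were CA2, with 370.2 and 111.9 FPKM, SLC4A4, with 43.0 and 32.6 FPKM, and CPAMD8. CPAMD8 was listed at 0 in the affected library and had a normal value of 43.3 FPKM. Such a 0 is not read as absence, but its log2 ratio of −5.47 lowers the mean of the ciliary list. The contribution of the ciliary epithelium to the rod values was not tested.

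The 7 genes lie on 6 chromosomes, with GUCA1B and PRPH2 352980 bases apart on chromosome B2. As a group, their neighbours stood near the background. Within 500 kb of the middle of a rod gene there were 122 other loci past the minimum, of which 13, or 10.7%, were at least 2-fold higher in the affected cat, against 8.14% of all loci, and their median log2 ratio was 0.019. ATG16L1, an autophagy gene 3049 bases from SAG, was listed at 13.3 and 11.7 FPKM. ATP5I, a subunit of the mitochondrial ATP synthase 728 bases from PDE6B, was listed at 924.4 and 594.6 FPKM. PPARGC1B, a transcriptional coactivator gene 1770 bases from PDE6A, was listed at 1.72 and 3.70 FPKM (log2 ratio 0.79), and MRPS10, a mitochondrial ribosomal protein gene next to GUCA1B, at 30.5 and 26.3 FPKM. Besides GUCA1A, which is itself a photoreceptor gene, UBR2 and UBXN1 were the only loci with a gene symbol among those overlapping a rod gene that had at least 2-fold higher values. The overlapping Ensembl gene without a symbol did so too, as did some loci that lay further away, such as CPLX1, a regulator of synaptic vesicle release (log2 ratio 1.40), and the muscarinic receptor gene CHRM1 (1.99).

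**Figure D4:**
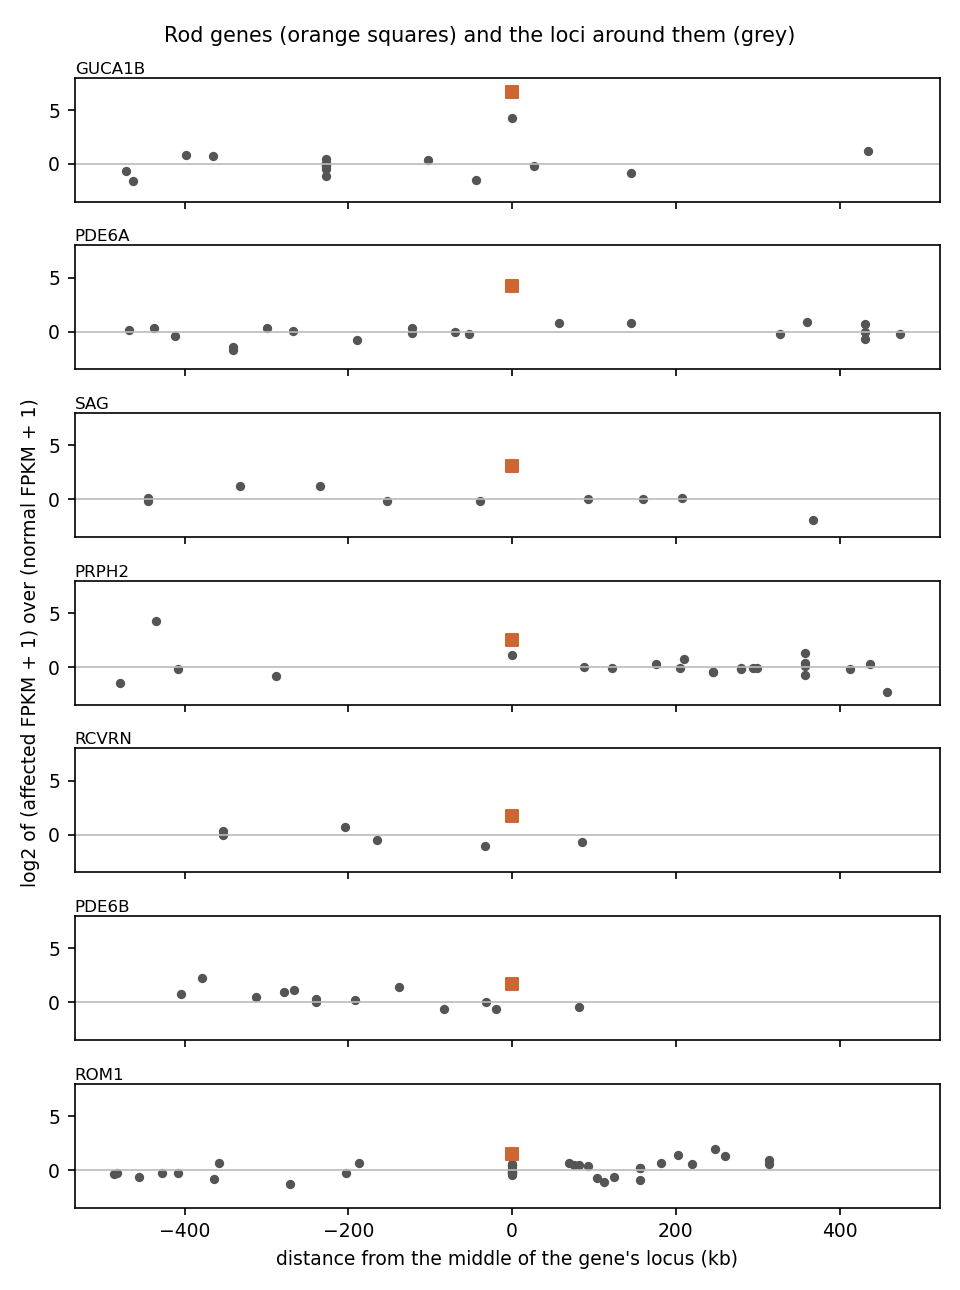
Log2 of (affected FPKM + 1) over (normal FPKM + 1) of each rod gene (orange square at 0) and of the other loci past the minimum (grey points) against the distance in kb from the middle of the gene's locus, 1 panel for each gene. The 122 neighbouring loci scatter around a median of 0.019, and the single grey point near the GUCA1B square is GUCA1A at 4.23, which is drawn again in the PRPH2 panel.

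The loci with a gene symbol whose levels in both libraries lay nearest to the median rod level of each library (47.8 FPKM normal, the value of PRPH2, and 201.9 FPKM affected, the value of ROM1, by distance over both log2 values) included PPP1R1B, FGFR1, NDRG1 and FBN1. PPP1R1B, a phosphatase inhibitor, was the nearest, with 44.8 and 215.2 FPKM. FBN1, which encodes fibrillin of microfibrils and the lens zonule, had 55.8 and 242.1 FPKM. With 2 libraries, likeness rests on 2 values per gene, and none of the 5 nearest loci is in the photoreceptor lists.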

How the data were processed

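RNA from 2 libraries, 1 normal and 1 affected, was analysed. The deposited values are FPKM per locus. Per the methods, the authors aligned reads with TopHat 2.0.9, guided by Ensembl predictions, to the felCat5 build and derived FPKM with Cufflinks 2.1.1 (bundles of up to 20000000 fragments) and cummeRbund 2.4.1. The scaling between libraries is not given in the sources used here. Count models need raw counts and were not applied, and no p-value was derived from single libraries.

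Log2 ratios used a pseudocount of 1 and loci that reached 1 FPKM in either library. Where a name stood on several rows, the row with the higher mean was used. Genes named are the rod genes, the 3 highest and lowest of a list or genes needed for a ratio, overlapping loci and the 5 nearest loci. Neighbours beyond overlapping loci, other named list genes, unnamed loci and POU4F genes were picked after their values were seen. Some genes that fall under these rules are not reported here. The members and lists were chosen with earlier results of these data known.

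Depth was recovered from 1313 (normal) and 1093 (affected) unnamed loci, where 97.5% and 97.2% of values lay within 0.03 of a whole fragment (6% by chance), with the length of the locus less 177 and 178 bases as effective length. The scales were 71200000 and 67600000 fragments. The recovery of depth was checked on simulated data. The 2-fold calls were run on values with a fixed change and no noise, a check that could not fail. Other steps were not checked on simulated data. Transcript lengths were not used here, so fragments are given per kilobase. Alternatives were another pseudocount, rescaling, minimum, fold threshold, list mean and summed rows, the last of which changes no rod gene because each has 1 row. Python 3.11.15, pandas 2.3.3, numpy 2.4.6, scipy 1.17.1 and matplotlib 3.10.9 were used.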

Additional observations from a re-analysis of the deposited data

How the results depend on the processing

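All 21 values recomputed for single rod genes with the other pseudocount or rescaling kept their direction, and 4 shifted by 0.1 or more in log2: a pseudocount of 0.1 gave 9.78 for GUCA1B and 4.63 for PDE6A, and rescaling each library to sum to 1000000 gave 7.25 and 4.30. All 7 genes stayed at least 2-fold higher under each pseudocount, rescaling and minimum, and 4 with a 4-fold threshold. Without GUCA1B, a setting chosen after the data were seen, the median was 2.13. Without the 10 highest loci the rod share was 0.0618% and 0.277%.

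List medians moved as follows. With a pseudocount of 0.1 they were 2.71 for other rod, 1.60 for structure, 1.25 for cone, 0.50 for bipolar, 1.10 for Müller and 1.43 for ciliary genes. With the sum rescaled, cone was 0.73 and ciliary 1.23. With no minimum, amacrine and horizontal was 0.38 and ganglion 0.026. With a mean of at least 5 FPKM they were 2.16 for other rod, 0.57 for transcription factors, 2.49 for cone, 0.59 for bipolar, 0.62 for amacrine and horizontal, 0.50 for Müller and 1.42 for ciliary genes, and ganglion (−0.079) and pigment epithelium (0.25) changed sign, since fewer genes enter. With at least 1 FPKM in both libraries, a setting chosen after the data were seen, they were 0.57 for transcription factors, 1.72 for cone, 0.59 for bipolar, 0.62 for amacrine and horizontal, 0.50 for Müller and 1.42 for ciliary genes. With the mean of a list they were 2.4 for other rod, 0.91 for cone, 0.36 for amacrine and horizontal, 0.23 for ganglion, 0.56 for Müller and 0.28 for ciliary genes, and −0.080 for transcription factors, opposite in sign. For the pseudocount, rescaling and list mean the cause was not tested. Fragments from coding lengths were not run, because no protein lengths were used here. No paired analysis was possible because there is a single library for each condition.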

Other observations

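Unnamed loci within 10 kb of a rod gene were looked at after their values had been seen. There were 5, beside SAG, GUCA1B and PDE6A, and all were higher in the affected library at low levels. The table does not give their strand or any link to a gene. If the length of the locus is the length of the transcript and numbers are rounded to whole fragments, the locus 3535 bases from SAG (chromosome C1 from 214775611 to 214777009) held 7 fragments in the normal library, with an exact 95% Poisson interval from 2.81 to 14.4, and 29 in the affected library (19.4 to 41.6). The locus 5074 bases from SAG held 5 (1.62 to 11.7) and 27 fragments (17.8 to 39.3). The locus 3933 bases from GUCA1B (chromosome B2 from 43010772 to 43012984) was listed at 0 in the normal and at 94 fragments (76.0 to 115.0) in the affected library. The loci 1974 and 1043 bases from PDE6A were listed at 0 in the normal library and at 38 (26.9 to 52.2) and 10 fragments (4.80 to 18.4) in the affected library. If a listed 0 stands for a count of 0, the same interval reaches up to 3.69 fragments, but such a 0 is not read as absence. These intervals cover counting error only, and whether these loci belong to the rod genes was not tested.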
